A study of Homo sapiens with 4 samples.

Results

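The genes described here are the core of the SPOP ubiquitin ligase and of the NEDD8 cycle that switches it on: SPOP, SPOPL, CUL3, RBX1, CAND1, NAE1, UBA3, NEDD8, UBE2M and DCUN1D1. They were chosen by gene symbol and matched by Ensembl gene ID, which found 10 members among the 60614 gene IDs of each count table. RNA-seq read counts came from 2 genotypes of DU145, a long-established line of human prostate cancer cells. F133V libraries, 2 of them, carry the genotype label SPOP-F133V, in which a phenylalanine of the substrate-binding MATH domain of SPOP is replaced by valine, and the other 2 libraries carry the label wild-type. Both genotypes were grown in the same medium, with no other agent or allele named in the labels. How the F133V cells were obtained (editing or added SPOP, clone or pool), whether the wild-type cells also received SPOP, and whether replicates 1 and 2 were separate cultures are not given in the labels. The p-values therefore measure only the spread between these libraries, which may be technical, and the effect of the mutation and that of a separate origin of the F133V cells cannot be told apart.

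Depth and identity were checked over the whole libraries. Each library held 35173245 to 39642063 reads assigned to genes. The summed level of 5 epithelial markers (EPCAM, KRT8, KRT18, KRT19 and CDH1) was 2242 to 2441 CPM (counts scaled to library size with TMM factors) in F133V cells and 1833 to 1835 CPM in wild-type cells. Of the 5 luminal prostate markers, KLK2 and KLK3 were at 0 in all 4 libraries. Summed hematopoietic markers reached at most 0.196 CPM and summed endothelial markers 0.708 CPM, and fibroblast markers lay at 7.33 to 7.68 CPM in F133V and 5.93 to 6.31 CPM in wild-type cells, nearly all of it COL1A1. The part of these differences in the results below was not tested.

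SPOP binds substrates through its MATH domain and binds CUL3 through its BTB domain, and SPOPL is its close paralog. CUL3 is the scaffold of the ligase and holds the RING protein RBX1, which recruits the ubiquitin-loaded conjugating enzyme. A cullin is active when the ubiquitin-like protein NEDD8 is attached to it: the heterodimer of NAE1 and UBA3 activates NEDD8, UBE2M carries it to cullins paired with RBX1, and DCUN1D1 promotes the transfer. CAND1 binds cullins that carry no NEDD8 and helps to exchange their substrate adaptors. In prostate cancer, SPOP is recurrently mutated in its MATH domain.

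The stretch around the altered residue is shown because it defines the genotypes and because SPOP and SPOPL are close enough in sequence for their reads to be compared. Each line gives 63 coding bases from GENCODE release 29 (GRCh38), 5′ to 3′, with the codon of the replaced residue in capitals. The SPOP stretch lies on the minus strand at chr17:49619032-49619094 and the SPOPL stretch on the plus strand at chr2:138552568-138552630, each within 1 coding exon.
SPOP: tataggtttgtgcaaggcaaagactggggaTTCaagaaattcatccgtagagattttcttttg
SPOPL: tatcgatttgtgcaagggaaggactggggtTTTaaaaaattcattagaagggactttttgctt
That codon encodes phenylalanine in both genes, and 47 of the 63 bases are identical. Over the 374 aligned codons the coding sequences share 75.2% of bases, and their longest identical run is 23 bases, shorter than the 75-base reads. Of the 2911 windows of 75 bases in the principal SPOP transcript, 0 stand in a transcript of another gene. A count per gene sums the reads of both alleles, so the genotype labels could not be checked with it.

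F133V cells had more SPOP mRNA and less mRNA of SPOPL, CUL3, CAND1, NAE1, UBA3 and DCUN1D1, with a small rise in UBE2M, before any adjustment for GC content. All 10 members passed the filter on low counts. Of these, 2 were called higher and 6 lower, and 2, RBX1 and NEDD8, did not pass (edgeR quasi-likelihood test with Benjamini-Hochberg adjustment over all genes, adjusted p under 0.05, here called the edgeR adjusted p). The background is high: of 17539 tested genes 54.8% were called, 27.2% higher and 27.6% lower. The median log2 fold change (F133V minus wild-type) was -0.63 over the members and 0.022 over all tested genes. CPM values of the genotypes did not overlap for 9 members, 2 higher and 7 lower, against 78% of all tested genes, 40.1% higher and 37.8% lower. In bulk RNA, a change in the RNA of each cell and a change in the mix of cells cannot be told apart.

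**Figure D1:**
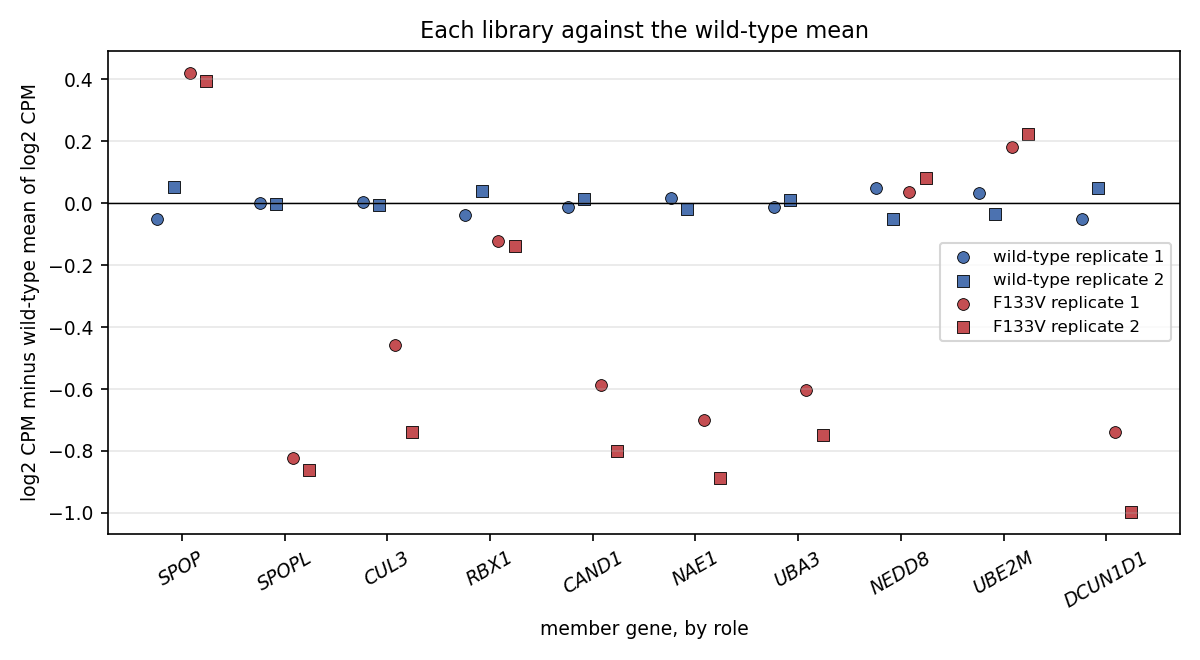
Level of each member in each library, as log2 CPM minus the mean log2 CPM of the wild-type libraries (y axis), for the members in order of role (x axis). Both F133V libraries (red) lie below both wild-type libraries (blue) for 7 members and above them for SPOP and UBE2M, and F133V replicate 2 (square) lies below F133V replicate 1 (circle) for 8 of 10 members.

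The direction of most members moved with the GC content of their transcripts, which is low for most of them. The longest transcripts of the members had a median GC content of 40%, against 48.8% over all tested genes, ranging from 33.9% in DCUN1D1 to 65.6% in UBE2M. Across the 10 members, GC content and log2 fold change had a Spearman rho of 0.85, and across 17299 tested genes the rho was 0.64. These genes share the same 4 libraries and are not independent replicates. The F133V libraries differed from each other along the same axis: replicate 2 was lower than replicate 1 for 8 of 10 members, by up to 0.28 on the log2 scale, with a rho of 0.73 between GC content and that difference across the members. The wild-type libraries differed by at most 0.10 for any member. Tested genes with a mean log2 CPM above 2 had a median log2 fold change of -0.61 where the GC content was 35% to 40%, -0.31 at 40% to 45%, -0.026 at 45% to 50% and 0.34 above 65%. CUL3, with a GC content of 37.5% and a fold change of -0.59, lay near the median of genes of its GC content. SPOP, with 45.5% and 0.41, lay above the interquartile range of such genes, -0.21 to 0.16. SPOPL, at -0.84, lay just below the interquartile range of genes with 35% to 40%, -0.83 to -0.38. Its GC content of 35.7% is near the edge of that bin, and its value lay within the range of genes below 35%, -0.94 to -0.47. NEDD8, at 0.058, lay above that of genes with 40% to 45%, -0.54 to -0.091. The principal transcript of NEDD8 has a GC content of 53.7%, and its value lay within the range of genes with 50% to 55%, -0.031 to 0.28.

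**Figure D2:**
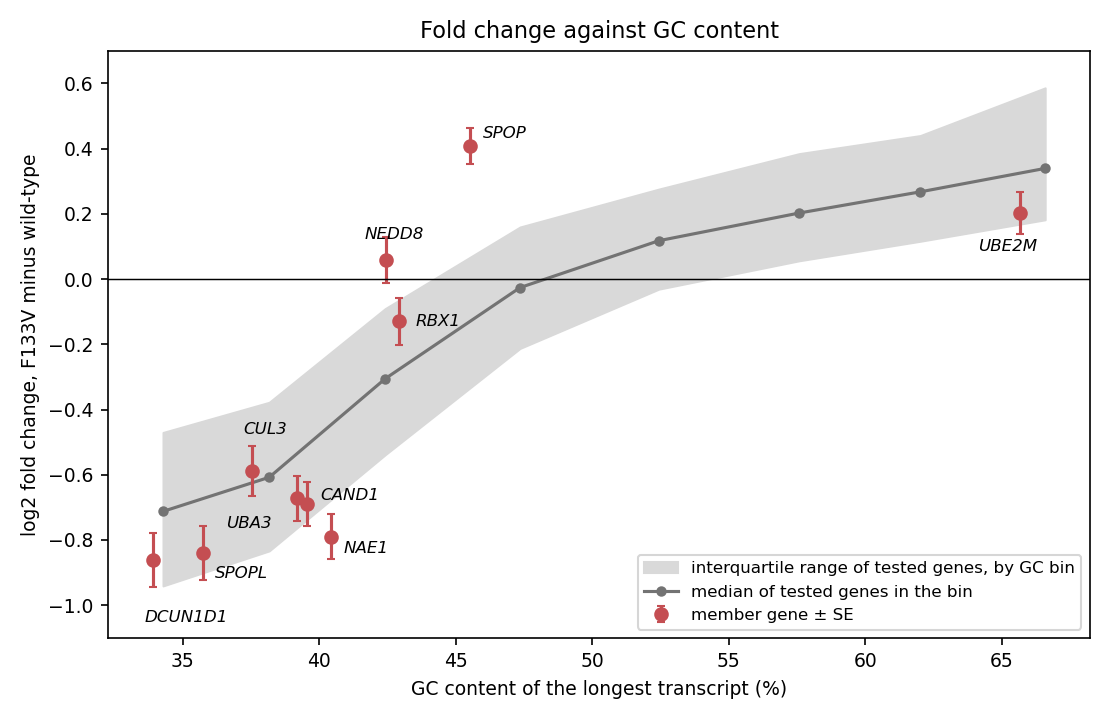
Log2 fold change (F133V minus wild-type, y axis, bars SE) of the 10 members against the GC content of their longest transcript (x axis), over the median (grey line) and the interquartile range (grey band) of tested genes in bins of GC content. SPOP and NEDD8 lie above the band and NAE1 below it, while CUL3, CAND1, UBA3 and UBE2M lie within it. The place of NEDD8 depends on the transcript used.

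Values are therefore also given from a second fit, called GC-adjusted, in which a smooth trend of each library on GC content and transcript length entered the same test as an offset. That fit called 52.1% of 17299 genes, 27.6% higher and 24.5% lower, and of the members 2 as higher and 4 as lower. The GC-adjusted median of the members was -0.073, and that of all tested genes 0.018. Between the fits 4 members kept their call, 3 lost it and 1, UBE2M, turned direction. Over all tested genes 5635 calls were kept, 3261 were lost and 654 turned direction. The adjustment took the longest transcript of each gene, which for NEDD8, RBX1 and NAE1 is not the principal coding transcript; for NAE1 both have a GC content of 40.4%. With GC content and length from the principal transcript, a choice made after the data were seen, 2 members were called higher and 5 lower, against 28.1% and 24.3% of all genes (52.4% in all). Any true genotype difference that runs along GC content is taken out by such an offset too. In all 18 fits run, 3 members kept their call: SPOP was higher, and NAE1 and UBA3 were lower. How many of all tested genes kept theirs was not counted.

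**Figure D3:**
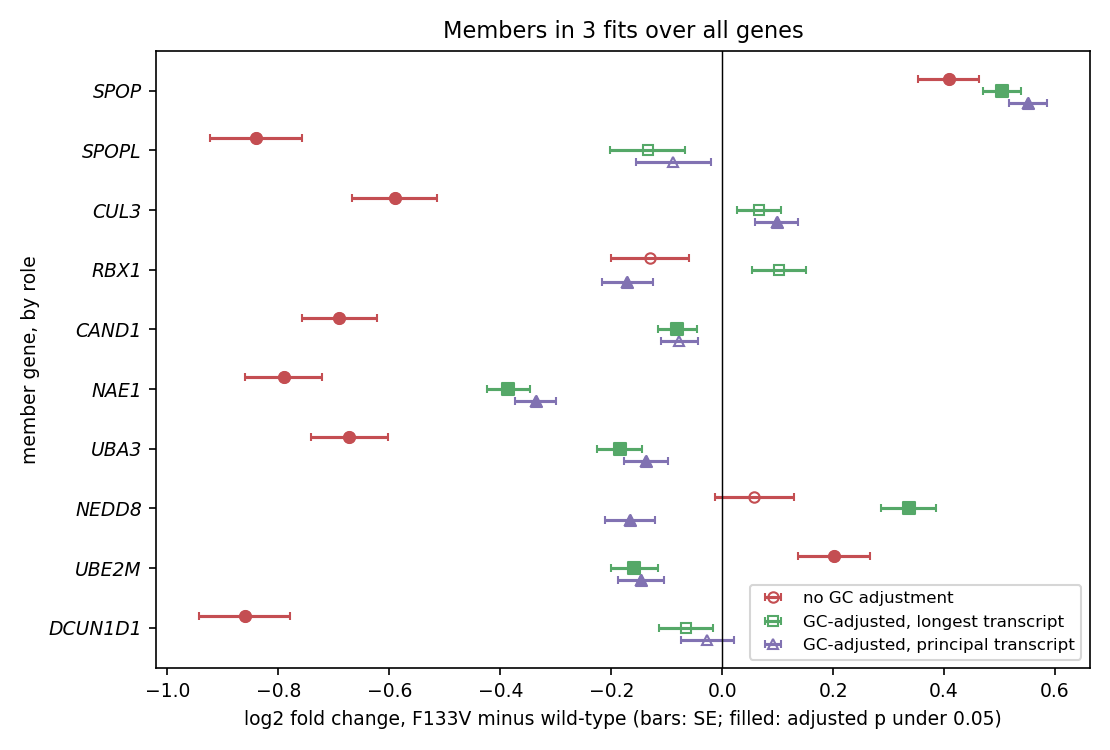
Log2 fold change of each member (x axis, F133V minus wild-type, bars SE) in the fit without GC adjustment (circles), the GC-adjusted fit on the longest transcript (squares) and on the principal transcript (triangles), with filled symbols for an edgeR adjusted p under 0.05. SPOP stays to the right of 0 and NAE1 and UBA3 to the left in these fits, while CUL3, UBE2M, NEDD8 and RBX1 change sides.

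Among the adaptors, SPOP was high in every library and higher in F133V cells, and SPOPL was low and lower still in F133V cells before GC adjustment. SPOP (ENSG00000121067.19, minus strand of chromosome 17, 49598884 to 49678234) was at 1171 and 1151 CPM in F133V replicates 1 and 2, and at 843.5 and 906 CPM in wild-type replicates 1 and 2. Both F133V libraries were above both wild-type libraries, with means of 1161 ± 14.6 and 875 ± 44.2 CPM (SD, n = 2 each). SPOP rose by a log2 fold change of 0.41 ± 0.055 (SE, edgeR adjusted p = 2.7e-06), and GC-adjusted by 0.50 ± 0.035 (edgeR adjusted p = 1.62e-15). Over all 18 fits the SPOP value ran from 0.36 to 0.56. SPOPL (ENSG00000144228.9, chromosome 2, 138501801 to 138573547 on the plus strand) was at 13.2 and 12.9 CPM in the F133V libraries and at 23.4 and 23.4 CPM in the wild-type libraries, so the groups did not overlap and the replicates nearly coincided. SPOPL fell by a log2 fold change of -0.84 ± 0.083 (edgeR adjusted p = 5.09e-08), but GC-adjusted it was at -0.13 ± 0.068 and did not pass (edgeR adjusted p = 0.0936), except without F133V replicate 2, where it was called lower (-0.21, edgeR adjusted p = 0.0193). Its transcript has a GC content of 35.7%.

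The ratio of SPOP to its partners was read per exon length of the native genes. Whether all SPOP reads come from the native gene is not given in the labels, and the length of any added copy is not known. The ratios may therefore not be those of the native gene. SPOP exceeded SPOPL in level per kilobase 89.7- and 90.5-fold in F133V replicates 1 and 2, against 36.5- and 39.3-fold in wild-type replicates 1 and 2. SPOPL made up 1.10% and 1.09% of the summed level of both adaptors in F133V cells and 2.67% and 2.48% in wild-type cells. The ratio of SPOP to CUL3 was 25.5 and 30.5 with F133V, against 13.4 and 14.4 with wild-type SPOP. Divided by the longest transcript instead, SPOP to SPOPL was 178.5 and 180.1 with F133V, against 72.7 and 78.2 with wild-type SPOP. SPOP to CUL3 was then 31.97 and 38.17, against 16.72 and 18.09. The size of the ratios and of the SPOPL share thus depends on the length used, but the fold between genotypes of each ratio does not. Both ratios were higher in both F133V libraries, by 2.38-fold for SPOPL and 2.01-fold for CUL3 (two-sided exact permutation test, p = 0.33 for each, the smallest that 2 against 2 can give, and 2 of 2 F133V libraries higher). From the GC-adjusted fold changes the corresponding differences were 1.56-fold and 1.35-fold.

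CUL3, the scaffold, was lower in F133V cells before GC adjustment, and RBX1 did not pass the test. CUL3 (ENSG00000036257.13, chromosome 2, 224470150 to 224585397 on the minus strand) was at 82.7 and 68.1 CPM in the F133V libraries and at 114 and 113 CPM in the wild-type libraries. The groups did not overlap, but the F133V libraries stood 0.28 apart on the log2 scale. CUL3 fell by a log2 fold change of -0.59 ± 0.077 (edgeR adjusted p = 1.77e-06). GC-adjusted it was at 0.066 ± 0.040 and did not pass (edgeR adjusted p = 0.168), and with the principal transcript it was called higher at 0.098 (edgeR adjusted p = 0.0319), as it was with the longest transcript without F133V replicate 2 (0.11, edgeR adjusted p = 0.0187). Of the 75-base windows in its principal transcript, 6.83% also stand in an antisense transcript, AC073052.2, whose reads cannot be told apart without strand. RBX1 (ENSG00000100387.9, chromosome 22, 40951347 to 40973309 on the plus strand) was at 44.1 and 43.7 CPM in the F133V libraries and at 46.8 and 49.4 CPM in the wild-type libraries. The F133V values lay just below the wild-type values, with a log2 fold change of -0.13 ± 0.071 (edgeR adjusted p = 0.127). RBX1 was called lower without F133V replicate 1 (-0.17, edgeR adjusted p = 0.00313) and without F133V replicate 2 (-0.12, edgeR adjusted p = 0.0323). GC-adjusted it was at 0.10 with the longest transcript (edgeR adjusted p = 0.0719), whereas with the principal transcript it was called lower at -0.17 (edgeR adjusted p = 0.00223). With GC content adjusted without length it was called higher at 0.16 (edgeR adjusted p = 0.00483).

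CAND1, the exchange factor, had the second highest level in CPM of the members and was lower in F133V cells. CAND1 (ENSG00000111530.13, chromosome 12, 67269281 to 67319951 on the plus strand) was at 154 and 133.02 CPM in the F133V libraries and at 230 and 234 CPM in the wild-type libraries. The groups did not overlap, and CAND1 fell by a log2 fold change of -0.69 ± 0.067 (edgeR adjusted p = 4.04e-08). GC-adjusted the value was -0.081 ± 0.035, close to the threshold on either side: the edgeR adjusted p was 0.048 with the longest transcript and 0.0517 with the principal one. That call was lost without F133V replicate 2 (edgeR adjusted p = 0.0541) and without wild-type replicate 1 (0.201) or 2 (0.316).

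Both subunits of the NEDD8-activating enzyme were lower in F133V cells in every fit. NAE1 (ENSG00000159593.15, chromosome 16, 66802875 to 66873256 on the minus strand) was at 77.0 and 67.8 CPM in the F133V libraries and at 127 and 124 CPM in the wild-type libraries. NAE1 fell by a log2 fold change of -0.79 ± 0.069 (edgeR adjusted p = 1.03e-08), which was -0.39 ± 0.039 GC-adjusted (edgeR adjusted p = 5.15e-11) and -0.34 with the principal transcript. UBA3 (ENSG00000144744.17, chromosome 3, 69054730 to 69080408 on the minus strand), the catalytic subunit, was at 57.3 and 51.8 CPM in the F133V libraries and at 86.2 and 87.7 CPM in the wild-type libraries. UBA3 fell by a log2 fold change of -0.67 ± 0.069 (edgeR adjusted p = 8.87e-08), which was -0.19 ± 0.041 GC-adjusted (edgeR adjusted p = 2.44e-04) and -0.14 with the principal transcript. The groups did not overlap for either gene. GC adjustment moved both values towards 0, to a log2 range over the adjusted fits of -0.44 to -0.32 for NAE1 and -0.21 to -0.12 for UBA3. The level of NAE1 per kilobase of exons exceeded that of UBA3 1.15- and 1.12-fold with F133V, against 1.26- and 1.20-fold with wild-type SPOP. Per kilobase of the longest transcript it was 1.52- and 1.48-fold, against 1.66- and 1.59-fold.

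The promoters of NAE1 and UBA3 are shown because these subunits form 1 enzyme and fell together in every fit. Each line gives the 250 bases before the RefSeq start (GRCh38.p14), 5′ to 3′ on the minus strand, at chr16:66830977-66831226 for NAE1 and chr3:69080366-69080615 for UBA3. Capitals mark a CCAAT box (CCAAT) or a GC box (GGGCGG), on either strand.
NAE1: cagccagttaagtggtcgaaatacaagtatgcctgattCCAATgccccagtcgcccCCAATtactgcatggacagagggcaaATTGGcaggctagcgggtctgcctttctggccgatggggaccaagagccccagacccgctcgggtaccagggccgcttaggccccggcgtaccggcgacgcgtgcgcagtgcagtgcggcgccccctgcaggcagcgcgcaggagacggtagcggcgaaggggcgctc
UBA3: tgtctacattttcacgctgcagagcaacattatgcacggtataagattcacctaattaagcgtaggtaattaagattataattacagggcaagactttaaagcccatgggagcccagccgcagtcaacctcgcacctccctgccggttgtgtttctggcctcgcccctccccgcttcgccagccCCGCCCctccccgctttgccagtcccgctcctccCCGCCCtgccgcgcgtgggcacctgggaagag
The NAE1 window holds CCAAT boxes and no GC box, and the UBA3 window holds GC boxes and no CCAAT box. Of 35116 promoter windows of this length, 32% hold CCAAT and 42.6% hold GGGCGG on either strand. The letters CCGGAAGT and TGACGTCA, also searched on both strands, are in neither window. A match is a description of the letters and not a measured binding site.

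NEDD8, UBE2M and DCUN1D1, which supply and transfer the modifier, did not move as a group. NEDD8 (ENSG00000129559.13, chromosome 14, 24216852 to 24232454 on the minus strand) was at 48.2 and 49.7 CPM in the F133V libraries and at 48.6 and 45.4 CPM in the wild-type libraries. The groups overlapped, with a log2 fold change of 0.058 ± 0.071 (edgeR adjusted p = 0.516). Its adjusted value turned with the transcript used: it was called higher at 0.34 with the longest transcript, of 42.4% GC (edgeR adjusted p = 2.8e-07), and lower at -0.17 with the principal transcript, of 53.7% GC (edgeR adjusted p = 0.00214). NEDD8 counts are also uncertain because 35.2% of the 75-base windows of its principal transcript stand in another gene as well, mostly in the readthrough gene NEDD8-MDP1, which was counted at 0 in all 4 libraries.

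UBE2M (ENSG00000130725.8, chromosome 19, 58555712 to 58558960 on the minus strand), the NEDD8-conjugating enzyme, was at 89.1 and 91.8 CPM in the F133V libraries and at 80.5 and 76.7 CPM in the wild-type libraries. Both F133V libraries were higher, and UBE2M rose by a log2 fold change of 0.20 ± 0.065 (edgeR adjusted p = 0.0121). The call was lost without wild-type replicate 1 (0.24, edgeR adjusted p = 0.153) and without wild-type replicate 2 (0.16, edgeR adjusted p = 0.347). With a GC content of 65.6%, UBE2M turned to -0.16 ± 0.042 after GC adjustment (edgeR adjusted p = 0.00178), a call lost without wild-type replicate 1 (-0.14, edgeR adjusted p = 0.0574). The adjusted value was -0.26 without F133V replicate 1 and -0.095 without F133V replicate 2. DCUN1D1 (ENSG00000043093.15, chromosome 3, 182938074 to 182985953 on the minus strand), the co-ligase for NEDD8, was at 34.1 and 28.5 CPM in the F133V libraries and at 54.9 and 58.8 CPM in the wild-type libraries. The groups did not overlap, and DCUN1D1 fell by a log2 fold change of -0.86 ± 0.083 (edgeR adjusted p = 3.37e-08), the lowest value among the members. GC-adjusted it was at -0.065 ± 0.049 and did not pass (edgeR adjusted p = 0.27). It was called lower GC-adjusted without F133V replicate 1 (-0.14, edgeR adjusted p = 0.0371) and with GC content adjusted without length (-0.12, edgeR adjusted p = 0.0437).

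Levels were ordered between genes as CPM per kilobase of exons. For SPOP this takes all reads as coming from the native gene, which the labels do not settle. SPOP stood first in every library, at 184 and 180 with F133V against 132 and 142 with wild-type SPOP, and ranked between 167 and 230 among 17299 genes. UBE2M followed at 48.6 and 50.2 with F133V against 44.0 and 41.9 with wild-type SPOP. In wild-type cells the order went on with NAE1, UBA3, CAND1, RBX1, NEDD8, CUL3, DCUN1D1 and SPOPL, and no neighbours overlapped. In F133V cells it went on with NAE1, RBX1, UBA3, NEDD8, CAND1, CUL3, DCUN1D1 and SPOPL, where NAE1 overlapped RBX1 and UBA3 overlapped NEDD8. SPOPL was last, at 2.05 and 1.99 with F133V against 3.62 and 3.61 with wild-type SPOP. Divided by the longest transcript instead, 8 of 10 members kept their place in the order of mean level over all libraries. In wild-type cells NAE1 (65.6) then stood above UBE2M (52.1) and RBX1 (25.7) above CAND1 (20.6), and CAND1 overlapped NEDD8. In F133V cells UBA3 (25.3) then stood above RBX1 (23.5), and CAND1 overlapped CUL3.

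**Figure D4:**
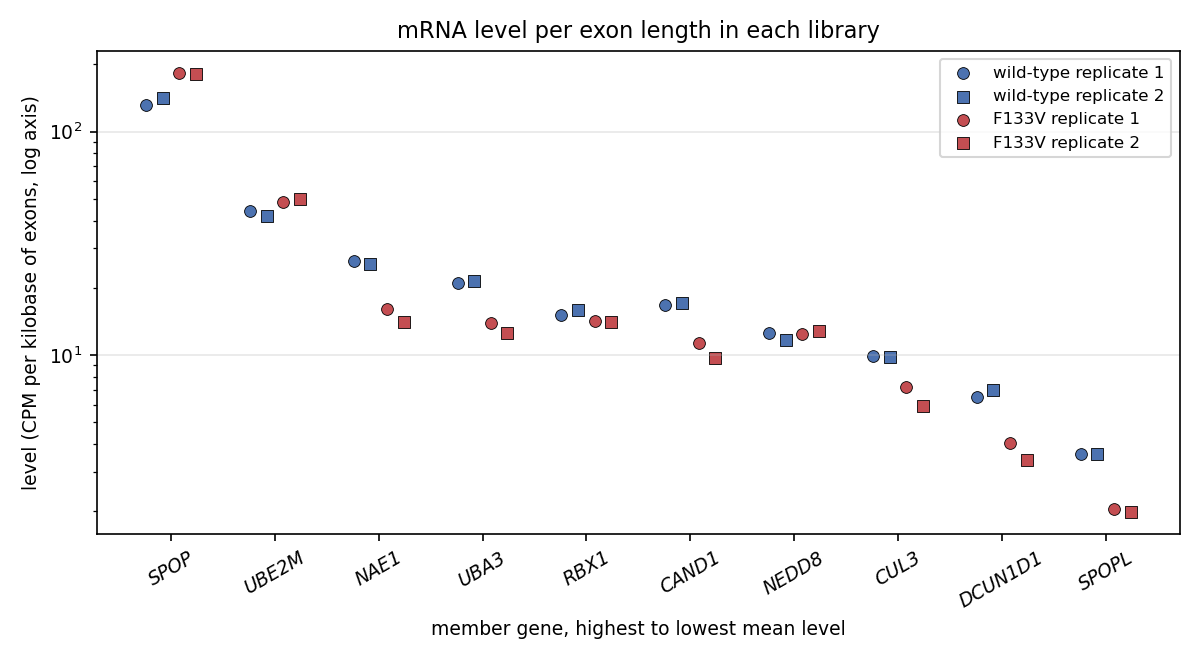
Level of each member in each library in CPM per kilobase of exons (log axis), with members ordered from the highest to the lowest mean level and one point per library. SPOP lies between 132 and 184 in the 4 libraries, UBE2M between 41.9 and 50.2, and SPOPL between 1.99 and 3.62.

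The other genes of the cullin ligase and NEDD8 cycle, a list of 40 that holds none of the members, were mixed. All 40 were tested: 7 were called higher, 20 lower and 13 did not pass, with a median log2 fold change of -0.22, against 27.2% higher, 27.6% lower and a median of 0.022 over all tested genes. GC-adjusted, 11 were called higher and 10 lower, shares close to the 27.6% and 24.5% of all tested genes, with a median of -0.013 against 0.018. Between the fits 9 calls were kept, 14 were lost and 4 turned direction, against 5635, 3261 and 654 over all tested genes.

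Of the other cullins and the RING protein RNF7, 1 of 8 rose and 5 fell, and after GC adjustment 2 were higher and 3 lower. CUL7, the scaffold of an FBXW8 ligase, rose by 0.60 ± 0.066 (edgeR adjusted p = 2.07e-07), from 56.8 and 55.3 CPM in the wild-type libraries to 83.8 and 86.1 CPM in the F133V libraries. CUL7 was called higher in all 18 fits, at 0.38 GC-adjusted. CUL2, the scaffold of the VHL ligase, fell by -0.81 ± 0.081 (edgeR adjusted p = 5.31e-08), from 69.1 and 70.7 CPM to 43.6 and 36.1 CPM, and was called lower in all 18 fits, at -0.32 GC-adjusted. CUL5, the scaffold of SOCS-box ligases, fell by -0.79, and was at -0.11 GC-adjusted (edgeR adjusted p = 0.0496). That adjusted CUL5 value was -0.22 without F133V replicate 1, and the call was lost without F133V replicate 2 (-0.047, edgeR adjusted p = 0.416), without wild-type replicate 2 (-0.064, 0.446) and with the principal transcript (0.213). CUL4B, a scaffold of DDB1 ligases, fell by -0.61 and did not pass GC-adjusted at 0.0058 (edgeR adjusted p = 0.924). With the principal transcript CUL4B was called lower at -0.13 (edgeR adjusted p = 0.0124).

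Of the other NEDD8 conjugation factors 0 of 6 rose and 4 fell. Among them was DCUN1D4, a paralog of DCUN1D1, at -0.78 (edgeR adjusted p = 7.74e-08), which did not pass GC-adjusted at -0.10 (edgeR adjusted p = 0.0768). Its adjusted value ran from -0.16 to -0.073 when 1 library was left out. Of the genes for NEDD8 processing and removal 0 of 3 rose and 2 fell. After GC adjustment 1 of the 6 conjugation factors was higher and 1 lower. Of the 3 processing and removal genes, 0 were then higher and 0 lower. In the COP9 signalosome, which removes NEDD8 from cullins, 2 of 10 rose and 4 fell, with a median of -0.054. COPS2 had the lowest value in the list, -0.86 ± 0.078 (edgeR adjusted p = 1.83e-08), and COPS9 rose by 0.19 (edgeR adjusted p = 0.0462). The COPS9 call was lost without F133V replicate 2 (0.10, edgeR adjusted p = 0.144), without either wild-type library (0.274 and 0.367), and with RLE scaling, DESeq2, no filter or a replicate block (0.0646 to 0.15). GC-adjusted, 3 of 10 signalosome genes were higher and 4 lower, and COPS2 and COPS9 did not pass, at -0.082 and -0.12 (edgeR adjusted p = 0.0987 and 0.0638). COPS2 was called lower with GC content adjusted without length (-0.11, edgeR adjusted p = 0.0289). With 1 library left out, the adjusted values ran from -0.17 to -0.047 for COPS2 and from -0.15 to -0.12 for COPS9.

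Of the ubiquitin-conjugating enzymes and their partners 2 of 8 rose and 4 fell. The rises were in CDC34 (0.32, edgeR adjusted p = 3.24e-04) and UBE2R2 (0.19, edgeR adjusted p = 0.00827), a pair of enzymes that extend ubiquitin chains on cullin substrates, and UBE2D1, of a family that starts ubiquitin chains, fell by -0.69 (edgeR adjusted p = 1.04e-06). After GC adjustment the balance was the other way: 4 of the 8 were called higher and 1 lower, and 2 calls turned direction. UBE2R2 was then called higher at 0.27 (edgeR adjusted p = 2.73e-08), whereas CDC34 was at -0.045 and UBE2D1 at 0.0038, and neither passed. With 1 library left out, the adjusted values ran from -0.097 to -0.032 for CDC34 and from -0.091 to 0.10 for UBE2D1. Without GC adjustment UBE2R2 did not pass without wild-type replicate 1 (edgeR adjusted p = 0.231) or without wild-type replicate 2 (edgeR adjusted p = 0.218), although its value stayed at 0.19 in both fits. Of the linkers of other cullins 2 of 4 rose and 1 fell, and after GC adjustment 1 was higher and 1 lower. Without GC adjustment ELOB rose by 0.36 (edgeR adjusted p = 5.77e-05) and DDB1 by 0.14 (edgeR adjusted p = 0.0432), and neither passed GC-adjusted. ELOB did pass when GC content was adjusted without length (0.092, edgeR adjusted p = 0.0434). The DDB1 call was lost without GC adjustment too, without either wild-type library (edgeR adjusted p = 0.418 and 0.303) and with RLE scaling, DESeq2, no filter or a replicate block (0.0504 to 0.123), and its value was 0.088 without F133V replicate 2. CAND2, the paralog of CAND1, was at 0.555 and 0.641 CPM in F133V and wild-type cells on average and did not pass.

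**Figure D5:**
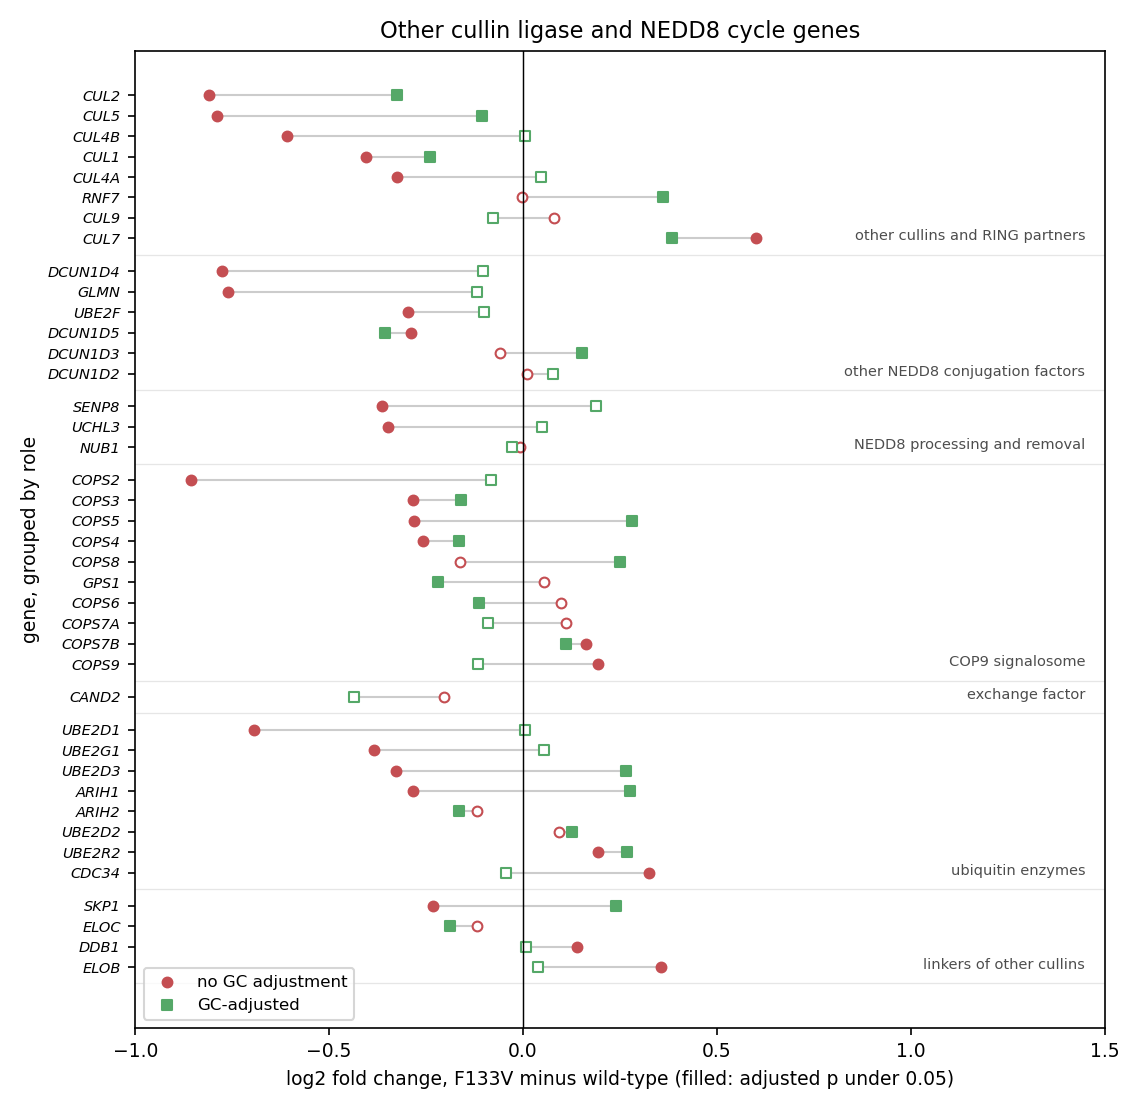
Log2 fold change (x axis, F133V minus wild-type) of the 40 other cullin ligase and NEDD8 cycle genes, grouped by role, without GC adjustment (red circles) and GC-adjusted (green squares), with filled symbols for an edgeR adjusted p under 0.05. CUL7 stays right of 0 and CUL2 left of 0 in both, and most low values move towards 0.

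The genes whose levels over the 4 libraries were most like those of SPOP were sought among 4653 tested genes with a mean of at least 50 CPM, by the root mean square difference of their log2 deviations from the gene mean. H6PD (0.0099), NID1 (0.011) and TPP1 (0.022) were closest. H6PD was at 96.7 and 94.2 CPM in the F133V libraries and 68.9 and 75.3 CPM in the wild-type libraries, and its log2 fold change was 0.41, or 0.29 GC-adjusted. With 4 libraries such a likeness describes these libraries only.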

How the data were processed

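Raw read counts per gene, whole numbers and not normalized, were deposited by the authors for 4 libraries of single 75-base reads. TopHat2 2.0.10, HTSeq 0.6.0 and build hg38 are named per the submitters' processing notes. Annotation release, strand setting and library kit: not given in the sources used here. Tallies of reads assigned to no gene stayed out: reads over no gene made up 6.12% to 6.53% of all reads, reads over several genes 3.50% to 3.73%, and reads with several alignments 15.1% and 16.6% in F133V and 14.6% and 13.6% in wild-type libraries. Symbols were found for 60400 of 60614 IDs, and gene models in GENCODE release 29 (GRCh38) for 58368.

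The counts went through edgeR 4.0.16 (R 4.3.3) with filterByExpr, TMM scaling and a two-sided quasi-likelihood F-test on 2 residual degrees of freedom. P-values were adjusted by Benjamini-Hochberg across every tested gene, with calls at 0.05. Each SE was the log2 fold change over the root of its F value. The GC adjustment smoothed each library's log2 deviation on GC content and log2 length of the longest transcript (mgcv 1.9.3, basis dimension 8, genes with mean log2 CPM above 2). Replicates of a group differed by more than sampling noise (chi-square over degrees of freedom 8.31 in F133V and 1.70 in wild-type). Alternatives were DESeq2 1.42.0, other scalings, no filter, a replicate block and leaving out each library.

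The members and lists were chosen with earlier results of these data known. Named genes were the members, up to 6 called genes of lowest p in each direction from the list of 40, and the 3 genes most like SPOP; RNF7 and CAND2 were named after their values were seen. The level of 1 marker gene is not reported here.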

Additional observations from a re-analysis of the deposited data

How the results depend on the processing

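Among the members, SPOP, NAE1 and UBA3 kept their direction and call in all 18 fits. These fits share the same 4 libraries, and how many of all tested genes kept theirs was not counted. The numbers of the replicates are not stated to pair samples. Replicate differences in F133V and wild-type cells correlated at -0.044 over 11977 genes. That value cannot decide on pairing, because the F133V difference followed GC content (Spearman rho 0.77) and the wild-type difference did not (-0.070). A replicate block called 4619 genes higher and 4746 lower, and 4 genes of the list of 40 higher where the fit without it called 7. With GC and length adjusted together with the block, 3 members were lower, and 11 of the list higher and 10 lower.

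Of the list of 40, 4 were higher with RLE scaling, with DESeq2 and without the filter, and 11 with upper-quartile scaling, which moved the median of all genes from 0.022 to 0.13 and gave 6462 higher and 3831 lower calls. GC adjustment gave 11 higher and 10 lower, GC without length 11 and 10, and the principal transcript 8 lower; the last 2 settings were chosen after seeing the data. Leaving out 1 library, with or without GC adjustment, gave 2786 to 5225 genes higher over all tested genes, 1 to 3 members higher and 2 to 7 lower, and 3 to 10 of the list higher and 6 to 23 lower. Without F133V replicate 1, 9 of the list were higher, and GC-adjusted without F133V replicate 2, 9 were lower. The wild-type libraries set the low ends: without replicate 1 or 2, 2819 and 2786 of all genes were higher, 1 member was higher in each case, and GC-adjusted 2 and 3 members were lower; a lone library was assumed to vary like the other group.

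Signs turned as follows under GC and length, the same with the block, GC without length, and the principal transcript, in that order. CUL3 gave 0.066, 0.065, 0.039 and 0.098, UBE2M -0.16, -0.16, -0.12 and -0.15, and CDC34 -0.045, -0.045, -0.011 and -0.033. COPS9 gave -0.12, -0.12, -0.040 and -0.057, and UBE2D1 0.0038, 0.0072, 0.049 and 0.070. CUL4B gave 0.0058, 0.0048 and 0.013 in the first 3, and -0.13 with the principal transcript, where it was called lower. RBX1 gave 0.10, 0.10 and 0.16 in the first 3. DDB1 (-0.0083) turned with GC without length, and NEDD8 (-0.17) with the principal transcript. GC-adjusted without 1 library (F133V replicates 1 and 2, then wild-type replicates 1 and 2), CUL3 gave -0.024, 0.11, 0.081 and 0.049, RBX1 0.11, 0.063, 0.058 and 0.15, UBE2M -0.26, -0.095, -0.14 and -0.19, and CDC34 -0.097, -0.032, -0.050 and -0.050. COPS9 gave -0.12, -0.15, -0.12 and -0.12, DDB1 -0.010, -0.013, -0.0048 and 0.018, ELOB -0.036, 0.069, 0.054 and 0.027, UBE2D1 0.016, -0.040, -0.091 and 0.10 and CUL4B -0.079, 0.048, 0.015 and -0.0016. Left out without GC adjustment, these 9 genes kept their signs. The cause was not tested.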
